A study of Bos taurus with 12 samples.

Results

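The CC chemokines and their receptors were followed here in the mammary gland (MG) of early lactation cows, 24 h after an intramammary lipopolysaccharide (LPS) challenge. The genes were CCL2, CCL3, CCL4, CCL5, CCL8 and CCL20 among the ligands and CCR1, CCR2 and CCR7 among the receptors. They were named from the RefSeq accession that the array gives for each probe, and all 9 genes were found, with 18 of the 43653 probes of the array and out of 12639 genes that could be named. CCL5 and CCR7 had 3 probes each, CCL20 and CCR2 had 1 probe each, and the other 5 genes had 2 probes each. The rule that picks their probes uses names and no measured value, although the genes were proposed with earlier results of these data known.

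The 12 arrays each held the RNA of 1 multiparous Holstein cow. The CONT cows (n = 6) ate a lactation diet ad libitum, and the REST cows (n = 6) had their ration diluted with barley straw (48% of dry matter) for 4 d, from 24 ± 3 d in milk. In both groups 50 µg of LPS was infused on d 3 into a healthy part of the udder of each cow. Every biopsy therefore came from a challenged gland, there was no gland without LPS on these arrays, and the comparison is of diets within inflammation. A biopsy holds epithelium, stroma and infiltrating leukocytes together, so that fewer cells of a type and less RNA per cell cannot be told apart.

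Chemokines of the CC family are small secreted proteins that guide leukocytes along their gradients. They act through G protein-coupled receptors that signal through Gi proteins and are switched off by receptor kinases and arrestins. CCL2 and CCL8 attract monocytes, CCL3, CCL4 and CCL5 attract monocytes, T cells and NK cells, and CCL20 attracts cells that bear CCR6. CCR1 binds CCL3 and CCL5, CCR2 is the main receptor of CCL2, and CCR7 guides dendritic cells and lymphocytes to lymph nodes along CCL19 and CCL21. In mastitis, mammary epithelial cells and resident macrophages are known sources of chemokines, and neutrophils are the main leukocytes recruited to the gland.

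Values are log2 signals, the log2 of the processed intensity of a probe minus that of the 75th percentile of its array, so that a probe at the 75th percentile has a log2 signal of 0. A log2 fold change (log2 FC) is REST minus CONT. The 75th percentile itself ranged from 386.9 to 1184 intensity units over the 12 arrays, and 57.6 to 78.2% of the spots of an array were well above background as called by the scanner software. Of 9 markers of milk epithelium, 8 were matched and all 8 were well above background on all 12 arrays. So were 9082 of 12639 named genes, of which 9000 had a value on every array. The mean log2 signal of the 8 markers ran from 7.06 (CONT cow 8027) to 8.22 (REST cow 7043). Among the tissue markers, 5 of 6 fibroblast genes had lower means in REST and 6 of 6 endothelial genes had higher means. Of all named genes, 43.5% had a higher mean in REST. An unadjusted p under 0.05 (limma) was found for 3 fibroblast genes, lower in REST, and 1 endothelial gene, higher in REST. Of all probes, 0.875% were lower and 1.74% higher at that limit. The part of these tissue markers in the values below was not tested. The 4 arrays of slide 1 came from 3 CONT cows and 1 REST cow, those of slide 2 from 1 CONT cow and 3 REST cows, and those of slide 3 from 2 cows of each group.

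No CC chemokine or receptor passed the threshold between the diets. The adjusted p was 1 for all 18 probes (limma, Westfall-Young step-down), and none was called with Benjamini-Hochberg either. This was so for the whole array, with 0% of the 43653 probes called by either adjustment and a lowest adjusted p of 0.22 (limma, Westfall-Young). Without adjustment, 1 of the 18 probes had p under 0.05, a probe of CCL3 that was lower in REST, whereas 2.62% of all probes passed that limit, 0.875% with lower and 1.74% with higher values in REST. The CONT and REST cows overlapped for every one of the 18 probes, and 0.126% of all probes had groups that did not overlap. Log2 signals were lower on average in REST for 11 of the 18 probes and higher for 7, while 46.1% of all probes were higher. By the brightest probe of each gene, the median log2 FC of the 9 genes was -0.31, beside -0.034 over all named genes. This median was -0.019 with normexp and -0.071 with slide as a block, and it was 0.83, -0.85 and 0.19 within slides 1, 2 and 3.

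**Figure D1:**
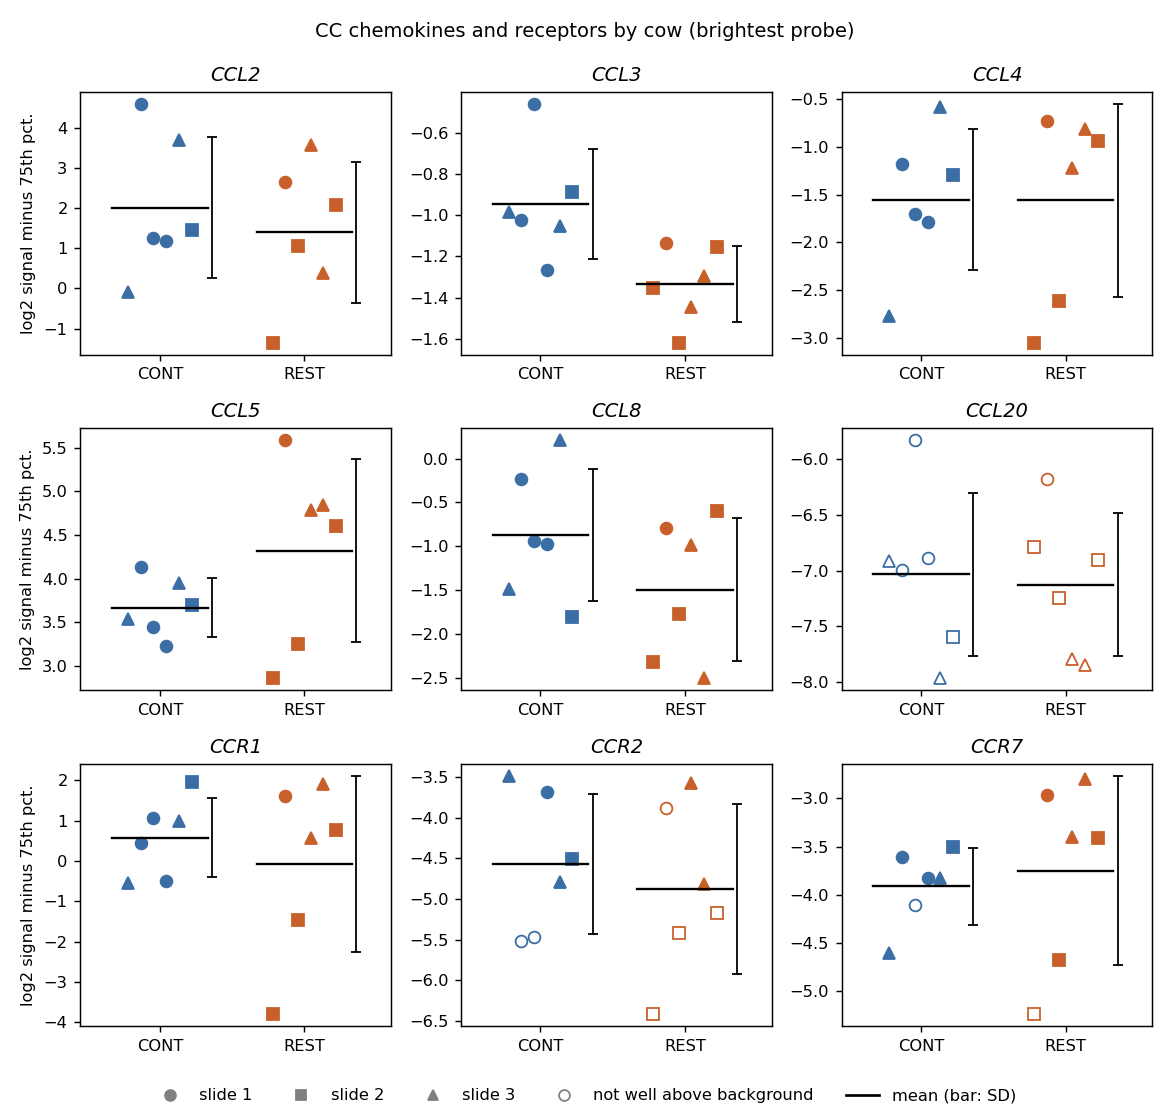
Log2 signal of the brightest probe of each gene in the 6 CONT and 6 REST cows, on the scale of log2 intensity minus the 75th percentile of the array, with a separate axis range for each gene. Each point is 1 cow, its shape gives the slide, open points were not well above background, lines are means and bars are SD. Points of the groups overlap in every panel, and 2 REST cows of slide 2 lie lowest in REST for CCL4, CCL5, CCR1, CCR2 and CCR7.

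CCL2, a main attractant of monocytes, varied more between cows than any other of the ligands. In CONT its log2 signal ran from -0.10 to 4.61 with a median of 1.35, and in REST from -1.35 to 3.59 with a median of 1.58. The highest cow was a CONT cow and the lowest a REST cow, but the medians lay close together. The log2 FC was -0.61 (standard error 0.92, 95% interval -2.60 to 1.37), and the exact permutation test gave p = 0.558 (two-sided, not adjusted). The second CCL2 probe gave -0.52 (standard error 0.97). For the brightest probe the value became -0.088 with slide as a block, -0.059 without REST cow 0049, -0.094 without CONT cow 0055 and -1.05 without REST cow 1018. The direction turned with the 75th percentile of the array as a covariate (0.32), and REST minus CONT was 0.31, -0.85 and 0.19 on slides 1, 2 and 3. The interval for CCL2 spans more than 1 log2 unit on either side of 0, so that neither a rise nor a fall of that size could be told from no difference.

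CCL8, which like CCL2 attracts monocytes, ran from -1.81 to 0.21 in CONT, with a median log2 signal of -0.96. In REST it ran from -2.51 to -0.60, with a median of -1.38. The 2 lowest cows were both REST cows, and the rest of that group lay within the CONT range. Its log2 FC was -0.63 (standard error 0.42, 95% interval -1.53 to 0.28, exact permutation p = 0.197, not adjusted), and its second probe gave -0.36 (standard error 0.32). For the brightest probe, slide as a block moved the value to -0.39, the 75th percentile of the array as a covariate to -0.28 and leaving out CONT cow 8027 to -0.41. REST minus CONT was -0.076 on slide 1, 0.24 on slide 2 and -1.11 on slide 3.

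CCL3, also known as MIP-1 alpha, gave the lowest unadjusted p among the 18 probes. Its brightest probe ran from -1.27 to -0.46 in CONT, and CONT cow 1024 was the highest. In REST the range was -1.62 to -1.13, with a median of -1.32. Of the REST cows, 4 of 6 lay below every CONT cow, and no REST cow lay above the CONT cows. The log2 FC was -0.39 (standard error 0.16, 95% interval -0.74 to -0.040), with an unadjusted p of 0.032 in limma and 0.0108 in the exact permutation test, but after adjustment (limma, Westfall-Young) p was 1. REST minus CONT was -0.22, -0.49 and -0.35 on slides 1, 2 and 3, but the unadjusted p was 0.083 with slide as a block. It also rose above 0.05 when CONT cow 9040, CONT cow 1024, REST cow 1018 or REST cow 1015 was left out, as 0 of the 18 probes then had an unadjusted p below that limit.

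The other CCL3 probe did not show this difference. It was well above background on all 12 arrays too, ran from -2.55 to -1.58 in CONT and from -2.47 to -1.17 in REST, and its difference on the log2 scale was 0.089 (standard error 0.26). REST minus CONT of this probe was 0.72 on slide 1, -0.44 on slide 2 and 0.26 on slide 3. The direction for CCL3 thus differed between its probes, and which of them follows the transcript better was not tested.

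CCL4, or MIP-1 beta, had nearly the same mean in both diets. Its log2 signal ran from -2.77 to -0.58 in CONT (median -1.50) and from -3.05 to -0.73 in REST (median -1.08). In REST, 4 cows lay close together between -1.22 and -0.73, and cows 0049 and 1015 lay far below them at -3.05 and -2.62. This gave a log2 FC of -0.0079 (standard error 0.47, 95% interval -1.02 to 1.00), and the second probe gave 0.10 (standard error 0.18). Its sign turned in 11 of 25 alternative settings, with 0.24 for slide as a block and 0.83, -0.90 and 0.66 within slides 1, 2 and 3.

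CCL5, or RANTES, which attracts T cells and monocytes, stood well above the 75th percentile of the array in every cow. In CONT the log2 signals lay between 3.23 and 4.14 with a median of 3.62, and in REST between 2.86 and 5.59 with a median of 4.69. The REST cows fell on both sides of CONT, as 4 of 6 lay above every CONT cow and 1 lay below them all. The values of these 4 were 4.60, 4.78, 4.85 and 5.59, whereas cow 0049 had 2.86 and cow 1015 had 3.25. The mean of all 6 REST cows differed from CONT by a log2 FC of 0.65 (standard error 0.41, 95% interval -0.24 to 1.55), with an exact permutation p of 0.171 that was not adjusted. All 3 CCL5 probes gave a positive log2 FC, at 0.65, 0.44 and 0.56, but they read the same transcript in the same cows and are not independent. REST minus CONT of the brightest probe was 1.99 on slide 1, -0.13 on slide 2 and 1.07 on slide 3, and the log2 FC was 0.98 (standard error 0.40) with slide as a block. With that block, 2 of the 18 probes had an unadjusted p under 0.05, both of CCL5, beside 2.79% of all probes, and their adjusted p was 1 (limma, Westfall-Young).

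CCL20, the ligand of CCR6, did not rise well above background in any of the 12 cows. The single probe lay between -7.97 and -5.83 in CONT and between -7.85 and -6.18 in REST, and no fold change is given. CCR6 itself was matched to a probe and likewise did not rise well above background in any cow.

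Among the receptors, CCR1 was well above background in all cows by its brightest probe. Its log2 signal ran from -0.56 to 1.96 in CONT (median 0.72) and from -3.80 to 1.92 in REST (median 0.67). The medians were alike, while cow 0049 at -3.80 and cow 1015 at -1.47 were the only REST cows below the CONT range. The log2 FC was -0.64 (standard error 0.88, 95% interval -2.54 to 1.26, exact permutation p = 0.548, not adjusted), and it was 0.11 without cow 0049. REST minus CONT was 1.27 on slide 1, -3.47 on slide 2 and 1.03 on slide 3, while blocking on slide gave a log2 FC of -0.25 and the 75th percentile covariate one of 0.48. The second CCR1 probe was well above background in 3 cows of each group and differed by a log2 FC of -0.26 (standard error 0.43).

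CCR2, the receptor of CCL2, was a dim probe that was well above background in 4 CONT and 2 REST cows. The log2 signals ran from -5.52 to -3.48 in CONT (median -4.65) and from -6.42 to -3.57 in REST (median -5.00), with wide overlap. Its log2 FC of -0.31 (standard error 0.51, 95% interval -1.40 to 0.79) became -0.019 with the normexp background correction, so that for this gene the signal over background limits what can be read. REST minus CONT was 1.00, -1.17 and -0.055 on slides 1, 2 and 3, with -0.071 for slide as a block and 0.092 with the 75th percentile of the array as a covariate.

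CCR7 was measured by 3 probes, of which the brightest was well above background in 5 cows of each group. It ran from -4.60 to -3.51 in CONT (median -3.82) and from -5.24 to -2.81 in REST (median -3.41). As for CCL5, 4 of 6 REST cows lay above every CONT cow, and the other REST cows, 0049 and 1015, lay below them all. On average REST differed from CONT by a log2 FC of 0.16 (standard error 0.40, 95% interval -0.70 to 1.03, exact permutation p = 0.719, not adjusted). REST minus CONT was 0.88 on slide 1, -0.93 on slide 2 and 1.11 on slide 3, while blocking on slide gave a log2 FC of 0.43. A second probe, well above background in 4 cows of each group, gave 0.13 (standard error 0.60), and the third did not rise well above background in any cow.

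**Figure D2:**
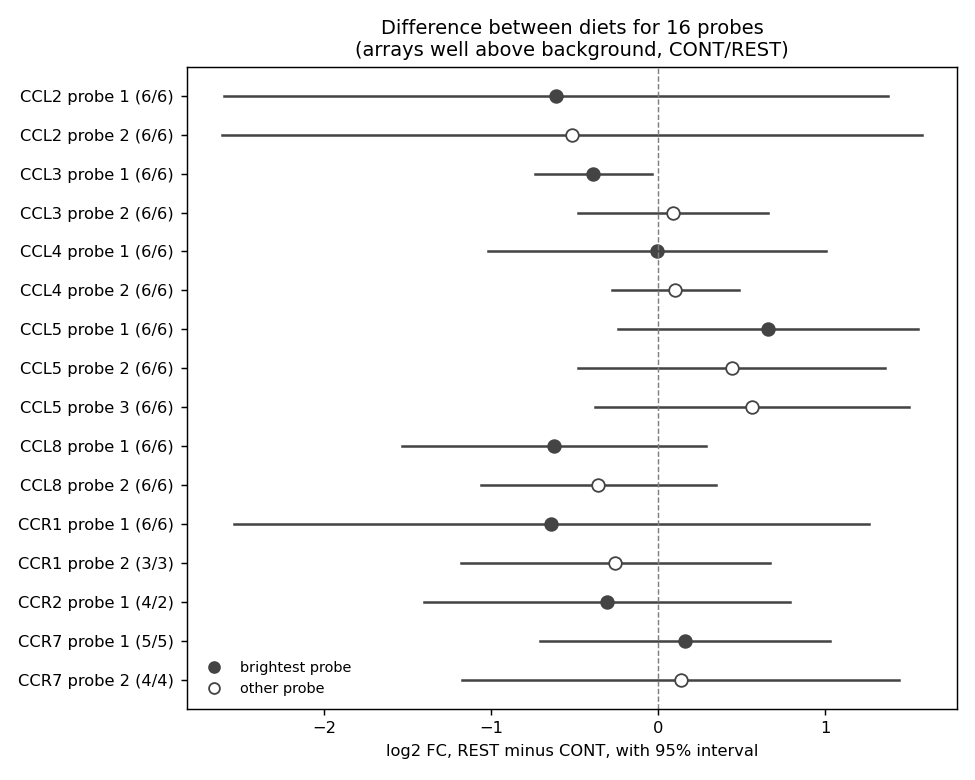
Log2 FC of REST minus CONT (horizontal axis, log2 units) with its 95% interval for the 16 probes that were well above background on at least 1 array; filled points are the brightest probe of a gene, and the number of arrays well above background in each group stands beside the name. The interval leaves out 0 for the brightest CCL3 probe alone, whereas the second CCL3 probe lies at 0.089.

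The values of 2 REST cows gave several of these genes a wider spread in REST than in CONT. The SD of CCL5 was 1.05 in REST and 0.34 in CONT (n = 6 each), a ratio of 3.12, and 0.80% of all probes had a higher ratio. For CCR7 the ratio was 2.47 (2.12% of probes were higher) and for CCR1 2.23 (3.20% were higher), beside a median ratio of 0.91 over all probes. The ratio was 1.37 for CCL4 (19.3% of probes were higher) and 1.21 for CCR2 (26.9% were higher), although the same 2 cows lay lowest in REST for both. It was 1.08 for CCL8, 1.00 for CCL2 and 0.68 for CCL3. These ratios were looked at after the values had been seen, and they are given as a description.

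The cows 0049 and 1015 were also the dimmest arrays, with 75th percentiles of 386.9 and 508.5. Both arrays were on slide 2, as were those of REST cow 7043 and CONT cow 9040. Cows 7043 and 9040 had 4.60 and 3.70 for CCL5, 0.77 and 1.96 for CCR1 and -0.94 and -1.30 for CCL4. For CCR2 they had -5.18 and -4.50, and for CCR7 -3.41 and -3.51. Whether the slide had a part in the low values was not tested. The share of spots well above background was 69.2% for cow 0049 and 70.8% for cow 1015, within the range of the other arrays. Tissue markers were also compared, by summed levels in multiples of the 75th percentile and by mean log2 signal. By summed level, milk epithelium was highest of all cows in 0049 and 1015, at 6704 and 5422 (CONT: 1630 to 4999). By mean log2 signal it did not set them apart. REST cow 7043 was then highest, at 8.22, cow 1015 had 8.05 and CONT cow 0015 had 7.99, with cow 0049 between 0015 and 1015. Fibroblast markers were lowest in 0049 and 1015 by both measures, with summed levels of 23.0 and 31.3 (CONT: 49.5 to 66.9). The part of the tissue make-up in their low values was not tested. Over the 12 cows, Pearson's r with the log2 of the 75th percentile was 0.74 for CCL4 (permutation test, Benjamini-Hochberg p = 0.031 over 9 relations) and 0.72 for CCR1 (permutation test, Benjamini-Hochberg p = 0.031). Spearman's rho was 0.64 for CCL4 and 0.58 for CCR1 (permutation test, Benjamini-Hochberg p = 0.237 for both). Without the cows 0049 and 1015, which lie farthest from the median, r fell to 0.45 for CCL4 and 0.24 for CCR1. Within the 6 CONT cows r was 0.24 for CCR1 and 0.77 for CCL4. Within the 6 REST cows, which include 0049 and 1015, it was 0.89 for CCR1 and 0.86 for CCL4. For CCL5 r was 0.42 over all cows, 0.94 within REST and 0.051 within CONT. Over all named genes, the median size of r with this measure was 0.39.

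When the 75th percentile was added to the model as a covariate, a choice made after seeing the data, 5 of the 18 probes had an unadjusted p under 0.05, beside 2.57% of all probes. They were the 3 CCL5 probes, with log2 FC of 1.19, 1.01 and 1.11, and 2 CCR7 probes, with 0.71 and 1.06. All were higher in REST, and the adjusted p stayed at 1 for each (limma, Westfall-Young). The unadjusted p of CCL3 rose to 0.065 in that model. Whether array brightness had a part in the low values of the 2 cows was not tested.

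The likeness of the genes across the cows was described by correlations. Of the 36 pairs of the 9 genes, 7 had a Benjamini-Hochberg p under 0.05 for Pearson's r and 4 of these also for Spearman's rho (permutation tests). Since CCL20 was below background, 28 pairs remain among the other 8 genes, and 26 of them had r above 0. Of all pairs of the 9000 named genes well above background on all 12 arrays, 50.5% had r above 0, with a median of 0.0065, and 4.17% reached 0.71, the lowest r of the 7 pairs. The closest pairs were among CCL4, CCL5, CCR1 and CCR7. CCL4 and CCR7 had r = 0.91 and rho = 0.80 (permutation test, Benjamini-Hochberg p = 0.0036 and 0.030), and CCL5 and CCR7 had r = 0.86 and rho = 0.92 (p = 0.0039 and 0.0029, likewise adjusted, permutation test). CCR1 and CCR7 followed with r = 0.88 and rho = 0.75 (permutation test, adjusted p = 0.0036 and 0.050). After removal of the group and slide means, these r were 0.90, 0.87 and 0.93.

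CCL2 was closest to CCL8, the other monocyte attractant. The pair had r = 0.82 and rho = 0.79 (permutation test, Benjamini-Hochberg p = 0.011 and 0.030), 0.82 within CONT, 0.83 within REST and 0.73 without the 2 cows farthest from the median of CCL2. CCL2 was also linked to CCL4, with r and rho of 0.71 (permutation test, Benjamini-Hochberg p = 0.047 and 0.069), whereas CCL8 had r = 0.52 with CCL4 (adjusted p = 0.255, permutation test). In the RefSeq annotation of assembly ARS-UCD2.0, CCL2 and CCL8 are separated by CCL11 alone. CCL3 and CCL4 lie as close, with 1 protein-coding gene between them, but their r was 0.19 and rho 0.13 (permutation test, Benjamini-Hochberg p = 0.732 and 0.899). All pairs of one cow share the biopsy, the array and its scaling, and the r of CCL4 with CCR7 was 0.83, that of CCL2 with CCL8 was 0.72 and that of CCL2 with CCL4 was 0.51 once the 75th percentile was regressed out. With the group means removed, CCL8 ranked 245 of 8999 genes by its r with CCL2, and CCL2 ranked 24 by its r with CCL8. CCR1 ranked 288 by its r with CCL4, and CCL4 ranked 287 by its r with CCR1.

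The r of these pairs was also taken within each diet. Over the 28 pairs, the median r was 0.67 within REST, where all 28 were above 0, and 0.26 within CONT, where 15 were. For CCL5 and CCR7, r was 0.96 in REST and 0.41 in CONT, and for CCR1 and CCR7 0.99 and 0.59 (n = 6 each). The REST values include the 2 low cows, and the difference between the diets was not tested. The pairs share genes and arrays, and no background over all pairs of named genes was taken within a diet.

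**Figure D3:**
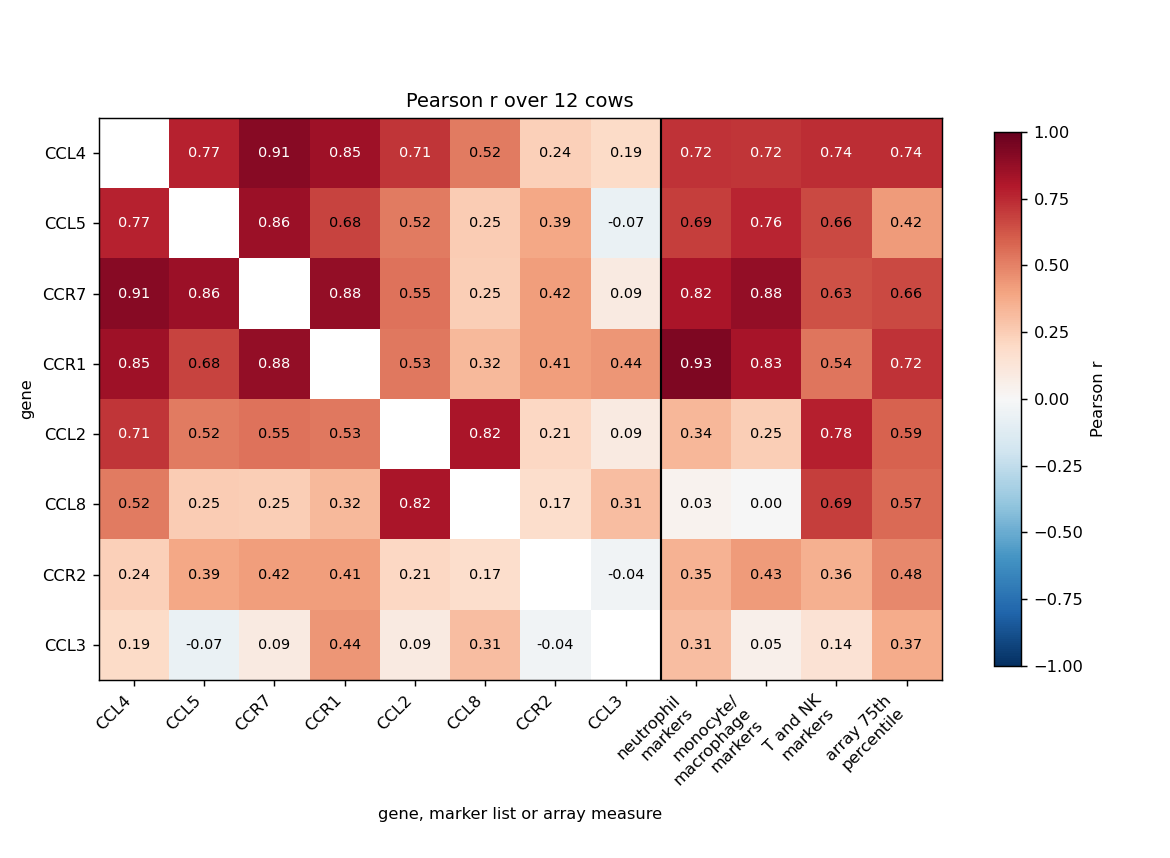
Pearson's r over the 12 cows (colour scale and printed value, no unit) between the 8 genes other than CCL20 (CCR2 and CCR7 were not well above background in every cow), and of each gene with the mean log2 signal of neutrophil, monocyte and macrophage, and T and NK cell markers and with the log2 of the 75th percentile of the array. CCL4, CCL5, CCR7 and CCR1 have r of 0.68 to 0.91 with one another and 0.69 to 0.93 with the neutrophil and monocyte markers; CCL2 and CCL8 have r = 0.82 with each other. The column of T and NK cell markers holds for the mean log2 signal, and its values turn negative for all 8 genes with the summed level of the list.

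Leukocyte markers moved with some of these genes in the same cows, but CCL3 and CCR2 had no Benjamini-Hochberg p under 0.05 with any of the 3 lists (permutation tests). Their r with the neutrophil, monocyte and T and NK lists was 0.31, 0.052 and 0.14 for CCL3 and 0.35, 0.43 and 0.36 for CCR2. The mean log2 signal of 7 neutrophil markers, which include S100A8, S100A9 and CXCR2, had r = 0.93 and rho = 0.92 with CCR1 (permutation test, Benjamini-Hochberg p = 0.00027 and 0.0019 over 27 relations), and r was 0.92 within CONT and 0.99 within REST. The unadjusted p of this r, 1e-05, is the smallest that 100000 resamples can give. CCR7 had r = 0.82 and rho = 0.84 with the same list (permutation test, adjusted p = 0.0071 and 0.0056), but r was 0.34 within CONT and 0.97 within REST. CCL4 had r = 0.72 and rho = 0.65 (permutation test, adjusted p = 0.023 and 0.058) and CCL5 r = 0.69 and rho = 0.78 (permutation test, adjusted p = 0.033 and 0.016), with r of 0.29 and 0.16 within CONT and 0.94 and 0.90 within REST. CCL2 and CCL8 did not pass with this list, at r = 0.34 and 0.033 (permutation test, adjusted p = 0.431 and 0.990). Without the cows farthest from the median of the list, 0049 and 1058, r was 0.86 for CCR1, 0.60 for CCR7, 0.52 for CCL4 and 0.53 for CCL5. The summed level of the neutrophil list, in multiples of the 75th percentile, was 20.6 to 175 in CONT (median 40.1) and 7.0 to 196 in REST (median 87.2). The lowest value was that of cow 0049, and cow 1015 had 28.9. None of the 7 genes was below background on any array, and none had an unadjusted p under 0.05 between the diets.

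Monocyte and macrophage markers (11 of 12 matched) had r = 0.88 with CCR7, 0.83 with CCR1 and 0.76 with CCL5 (permutation test, Benjamini-Hochberg p = 0.0018, 0.0071 and 0.015), with rho of 0.90, 0.72 and 0.87 (permutation test, adjusted p = 0.0019, 0.037 and 0.0036). CCL4 passed with this list too, with r = 0.72 and rho = 0.69 (permutation test, adjusted p = 0.017 and 0.045). CCL2 and CCL8 had r of 0.25 and -0.0045 with this list (permutation test, adjusted p = 0.570 and 0.990) and rho of 0.27 and 0.021 (permutation test, adjusted p = 0.536 and 0.956). Within CONT alone, r with the monocyte list was 0.32 for CCR7, 0.42 for CCR1, 0.33 for CCL5 and 0.16 for CCL4, and within REST it was 0.94, 0.95, 0.82 and 0.90. With the 15 markers of T and NK cells, r was 0.78 for CCL2 and 0.69 for CCL8 (permutation test, adjusted p = 0.015 and 0.033) and rho was 0.85 and 0.71 (permutation test, adjusted p = 0.0056 and 0.039). These markers were not particular to CCL2 and CCL8, since CCL4 had r = 0.74 and CCL5 r = 0.66 with them (permutation test, adjusted p = 0.021 and 0.043) and rho of 0.72 and 0.66 (permutation test, adjusted p = 0.037 and 0.058). The sign depended on how the list was summarised, however. With the log2 of its summed level, a measure chosen after seeing the data, r was -0.34 for CCL2, -0.27 for CCL8, -0.57 for CCL4 and -0.29 for CCL5 (permutation test, adjusted p = 0.399, 0.472, 0.130 and 0.472 over 27 relations), with rho of -0.22, -0.070, -0.40 and -0.27 (permutation test, adjusted p = 0.656, 0.834, 0.392 and 0.602). By this measure CCR1 was the only gene that passed for Pearson's r, with r = -0.71 and rho = -0.57 (permutation test, adjusted p = 0.033 and 0.163), and r was -0.16 without the cows 0049 and 1015. CCR7 had r = -0.63 and rho = -0.48 (permutation test, adjusted p = 0.074 and 0.309). Cow 0049, the lowest for CCL2, had the highest summed level. The T and NK list thus gives no settled direction. The neutrophil list did not depend on this choice for CCR1, with r = 0.92 and rho = 0.87 by the summed level (permutation test, adjusted p = 0.00054 and 0.0065), and for the monocyte list r by the summed level was 0.78 for CCR7, 0.83 for CCR1, 0.63 for CCL5 and 0.78 for CCL4 (permutation test, adjusted p = 0.014, 0.0092, 0.074 and 0.0092), with rho of 0.71, 0.67, 0.67 and 0.76 (permutation test, adjusted p = 0.063, 0.077, 0.077 and 0.040). Without cows 0049 and 1058, r with the summed monocyte level was 0.42 for CCR7, 0.51 for CCR1, 0.40 for CCL5 and 0.65 for CCL4. Within CONT it was 0.073, 0.24, 0.34 and 0.51 in the same order. By the mean log2 signal of the monocyte list, r without those 2 cows was 0.76, 0.65, 0.78 and 0.61. Summed levels of the monocyte list were 37.1 to 59.6 in CONT and 19.9 to 69.5 in REST, and those of the T and NK list 35.6 to 42.4 and 36.9 to 56.1. The part of the leukocyte content of the biopsies in the values of these genes was not tested.

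**Figure D4:**
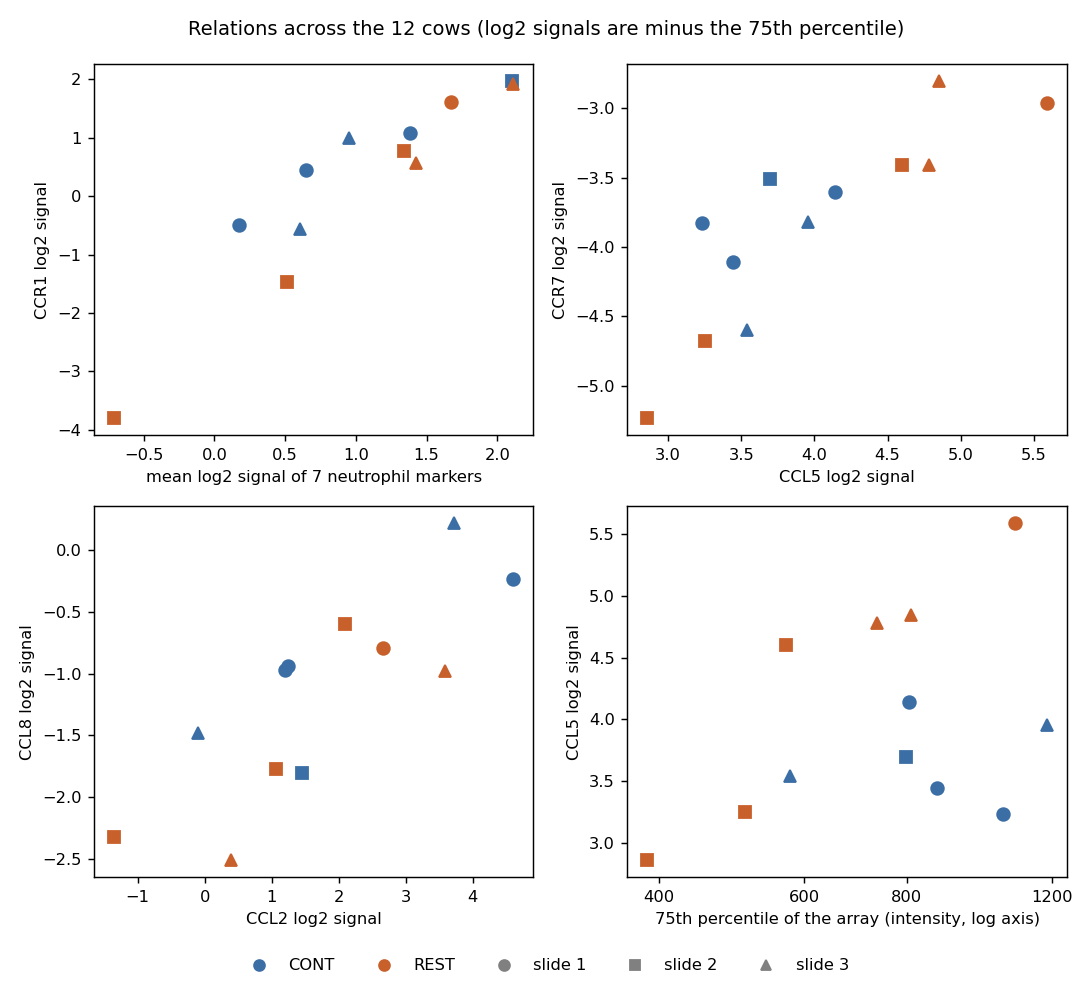
Each point is 1 cow (colour: diet; shape: slide), on axes of log2 signal minus the 75th percentile of the array, except for the last panel, where the horizontal axis is the 75th percentile itself as intensity on a log scale. CCR1 rises with the mean of 7 neutrophil markers (r = 0.93), CCR7 with CCL5 (r = 0.86) and CCL8 with CCL2 (r = 0.82), while CCL5 rises with the 75th percentile within REST (r = 0.94) and not within CONT (r = 0.051).

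For each gene above background on all 12 arrays, the 3 genes most like it were taken from 8999 named genes by Pearson's r over the 12 cows, with the group means removed. This is a description without a test. For CCR1 they were CD48, FCER1G and APBB1IP (r = 0.99 each), which are known from leukocytes, FCER1G as the signalling chain of Fc receptors. CCL8 was most like CXCR6 (0.93), a chemokine receptor of T and NK cells, followed by TMEM176A and ZBTB43. CCL2 was most like LRRC8E, KRT18 (a keratin of simple epithelia) and RGS16 (a regulator of G protein signalling), at 0.94 each. For CCL4 the genes were SLC6A14 (an amino acid transporter), LOC513055 and STARD3NL (0.98 to 0.96), and CCL5 was close to TP53RK and IFI30 (0.93 each). CCL3 had weaker partners, PPAT, CDK10 and PICK1 (0.85 to 0.82).

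Of the other CC ligands, 9 of 14 were matched, and by their brightest probes 6 had higher and 3 lower means in REST, beside 43.5% of all named genes with a higher mean in REST. CCL21, one of the ligands of CCR7 and known from lymphatic vessels, was the only one with an unadjusted p under 0.05, a limit that 2.62% of all probes passed. Its log2 signal ran from -1.73 to 1.19 in CONT (median 0.068) and from -2.84 to -0.41 in REST (median -0.78). The log2 FC was -1.24 (standard error 0.56, limma unadjusted p = 0.046), with an exact permutation p of 0.069 and, after adjustment over all probes (limma, Westfall-Young), p = 1. With slide as a block it was -0.95 (standard error 0.62), and within slides 1, 2 and 3 REST minus CONT was -0.47, -2.49 and -0.16. CCL19, the other CCR7 ligand and named here for that reason, differed by 0.44 (standard error 0.85). The largest positive difference in the list was that of CCL14 (0.79, standard error 0.48).

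Among the other CC and atypical receptors, 10 of 11 were matched, with 4 higher and 6 lower in REST, beside 43.5% of all named genes higher. An unadjusted p under 0.05 was found for 3 of these receptors, beside the 2.62% of all probes. CCR3, the eotaxin receptor, was the only one whose groups did not overlap (0.126% of all probes), at -5.61 to -5.21 in CONT and -5.08 to -4.30 in REST. This was a log2 FC of 0.75 (standard error 0.18), with p = 0.00216 in the exact permutation test, the smallest that 6 against 6 cows can give, while the value adjusted over all probes (limma, Westfall-Young) was 1. The probe was well above background in only 1 CONT and 3 REST cows, however, and normexp gave 0.17. ACKR1, a scavenger and carrier of chemokines on red cells and venular endothelium, was higher on average in REST by 0.59 (standard error 0.26, exact permutation p = 0.052), and ACKR2, a decoy receptor for inflammatory CC chemokines, was lower, at -0.87 (standard error 0.36, exact permutation p = 0.052). With normexp these became 0.20 and -0.18. CCRL2, which was well above background on all 12 arrays, had a difference of -0.0056 on the log2 scale (standard error 0.28).

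Among genes of chemokine receptor signalling, 10 of 12 were well above background on all 12 arrays, beside 9082 of 12639 named genes. Of 16, 12 were matched, 10 had higher and 2 lower means in REST (43.5% of all named genes were higher), and none had an unadjusted p under 0.05. The largest differences among those above background were 0.18 for GNB2 (standard error 0.18), a G protein beta subunit, and -0.21 for ARRB1 (standard error 0.27), an arrestin. RAC2, the GTPase of leukocyte movement, differed by 0.0056 (standard error 0.37).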

How the data were processed

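Total RNA (100 ng) of 12 biopsies was labelled with Cy3 for one-color Agilent bovine arrays, 1 per cow. The deposited values are spot intensity values that the authors obtained with Feature Extraction (version 11.0.1.1 per the file headers), background-subtracted and not normalized between arrays; the deposited matrix held the same intensities (largest difference 0). Control spots were left out, outlier-marked spots were set to missing, log2 intensities were shifted to the 75th percentile of the array, and spots of the same probe were averaged. Probes were named by RefSeq accession, without its version, through a RefSeq table of another assembly (ARS-UCD2.0) than that of the array (UMD_3.1), so that no positions are given. A gene was read by its probe with the highest mean signal.

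REST and CONT were compared over all 43653 probes with limma 3.58.1 (R 4.3.3), with Westfall-Young step-down p-values from 100 distinct splits of the cows, a threshold of 0.05 and Benjamini-Hochberg as an alternative. Exact permutation tests enumerated 924 assignments (smallest p 0.00216). Correlations used 100000 permutations (scipy 1.17.1). The labels do not pair the cows. Alternatives were quantile normalization, normexp (offset 50), the deposited matrix, only probes well above background, outlier spots kept, an eBayes intensity trend, slide as a block or alone, all probes of a gene, and each cow left out. The tests ran on simulated data first. Depth does not apply to arrays, whose number limits the precision.

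The members and gene lists were chosen with earlier results of these data known. Named besides the members were the list genes with an unadjusted p under 0.05 or groups that did not overlap, the largest rise and fall of each list among genes well above background on all arrays of at least 1 group, and the 3 genes most like each member; CCL19, CCR6, RAC2 and markers were added after their values were seen. Some values that these rules would name are not reported here, and no sequences are shown.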

Additional observations from a re-analysis of the deposited data

How the results depend on the processing

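The count of probes past the threshold (Westfall-Young, limma) was 0 in all 21 alternatives, for all probes as for the 18 probes of CC chemokines and receptors. The median log2 FC of the 9 genes was -0.31, and between -0.43 (without REST cow 0078) and -1.8e-05 (without REST cow 0049) when single cows were left out. It became -0.019 with normexp, -0.071 with slide as a block, and 0.83, -0.85 and 0.19 within slides 1, 2 and 3. With only probes well above background, which leaves out CCR2, CCR7 and CCL20, it was -0.50. It was 0.32 with the 75th percentile as a covariate, an alternative chosen after seeing the data, as was the median without CCL20 (-0.35). Signs turned for some genes. With that covariate the log2 FC was 0.32 for CCL2, 0.66 for CCL4, 0.48 for CCR1 and 0.092 for CCR2. Within slide 1 it was 0.31 for CCL2, 0.83 for CCL4, 1.27 for CCR1 and 1.00 for CCR2; within slide 2 it was -0.13 for CCL5, 0.24 for CCL8 and -0.93 for CCR7; and within slide 3 it was 0.19 for CCL2, 0.66 for CCL4 and 1.03 for CCR1. The mean over all probes gave 0.047 for CCL4 and -0.00057 for CCR7, normexp gave 0.018 and slide as a block 0.24 for CCL4. With single cows left out, CCL2 ran from -1.05 (without REST cow 1018) to -0.059 (without REST cow 0049), CCL5 from 0.40 (without REST cow 0078) to 0.95 (without REST cow 0049), CCR2 from -0.57 (without REST cow 1018) to -1.8e-05 (without REST cow 0049), CCL4 from -0.25 to 0.29, CCR1 from -1.04 (without REST cow 1058) to 0.11 (without REST cow 0049) and CCR7 from -0.026 (without REST cow 1058) to 0.46 (without REST cow 0049). CCL3 kept its sign in all 25 alternatives (-0.49 to -0.15). Of these, the deposited matrix, outlier spots kept, only probes well above background, the eBayes trend and Benjamini-Hochberg left its value at -0.39. The second CCL3 probe alone, with a log2 FC of 0.089, was not among the alternatives. The cause of the changes between settings was not tested. The dim probes of CCR2, CCR7 and CCL20 limit what can be read for these genes.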
